A study of Mus musculus with 18 samples.

Results

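Immediate early genes are switched on within minutes of a growth factor, cytokine or stress signal, without the need for new protein. Most encode transcription factors that carry the signal to a later set of genes. The EGR proteins are zinc finger factors that bind GC-rich sites. FOS and JUN proteins pair to form AP-1. Transcription of several of these genes, with Egr1 and Fos as textbook cases, runs through the ERK kinases, ternary complex factors and serum response factor (SRF), which binds the CArG box. In fibroblasts, serum is the classic inducer, and the transcripts are short lived, so that their level follows the current state of the signal.

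The 10 genes described here are Egr1 (ENSMUSG00000038418), Egr2 (ENSMUSG00000037868), Egr3 (ENSMUSG00000033730), Fos (ENSMUSG00000021250), Fosb (ENSMUSG00000003545), Fosl1 (ENSMUSG00000024912), Jun (ENSMUSG00000052684), Junb (ENSMUSG00000052837), Ier2 (ENSMUSG00000053560) and Ier3 (ENSMUSG00000003541). They are 10 of the 57180 genes in the table, each found in 1 row by its gene name, and all 10 were among the 14263 genes tested. Egr1 was selected on its log2 fold change with AOA, among the largest falls of all genes, and the other 9 were added as known immediate early genes. Differences between AOA and Mock are therefore given without a test for all 10 genes. Egr1 is tested only between HT-DNA+AOA+Asp and AOA+Asp, since every other comparison shares libraries with an AOA contrast, and its other values are a description.

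RNA was sequenced from L929 cells, an established line of mouse fibroblasts of wild-type genotype, in 6 groups of 3 independent cultures. Mock cells were labelled as treated with DMSO. AOA is aminooxyacetic acid, which blocks aminotransferases, and cells received it at 0.5 mM, starting 1 h ahead of HT-DNA where both were given. HT-DNA is herring testis DNA, which the cytosolic DNA sensor cGAS recognises, and it was given by lipofection at 0.5 μg/ml for 6 h. Aspartate (Asp) was added at 20 mM. The groups were Mock, AOA, AOA+Asp, HT-DNA, HT-DNA+AOA and HT-DNA+AOA+Asp. No group received aspartate without AOA, and all cells come from 1 line. The questions of the design are what AOA changes, whether aspartate returns it, and how either alters the response to HT-DNA.

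Libraries held 17901546 to 24057284 counts. Replicates differed by more than counting error in every group, and most in HT-DNA+AOA, where chi-square per degree of freedom between libraries was 16.6 to 60.8 against 2.69 to 12.1 elsewhere. The share of mitochondrial counts was 3.35% to 3.57% in AOA+Asp and 3.215% to 3.27% in HT-DNA+AOA+Asp, above the 2.69% to 3.15% of the other 4 groups. The share of ribosomal protein genes was 4.78% to 5.31% in Mock and 5.65% to 6.67% in AOA. The part of either in the results was not tested. In bulk RNA, fewer cells that express a gene and less of its RNA per cell cannot be told apart. Of 14 fibroblast markers, 10 were at 1 CPM or more in every library (CPM, counts scaled to library size), among them Vim at 2300 to 2966 CPM and Col1a1 at 117 to 159 CPM. The fibroblast markers Thy1, Fap, Dcn and Lum were at or near 0. The leukocyte markers Ptprc, Adgre1 and Cd3e had 0 counts in all 18 libraries, whereas Cd68, which the lysosomes of many cells carry, was at 110 to 155 CPM. The 9 macrophage and leukocyte markers summed to 113 to 127.9 CPM in HT-DNA and 139.7 to 156.8 CPM in HT-DNA+AOA, 1 of the 9 being at 1 CPM or more in every library. Epithelial markers summed to at most 0.640 CPM and endothelial markers to at most 2.36 CPM.

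Promoter sequences were taken from RefSeq (GRCm38.p6), which gave a start site for 6 of the 10 genes, with 5 for Egr2. The 250 bases before each start were searched on both strands for the CArG box, the AP-1 site TGANTCA, the CRE TGACGTCA, and the EGR sites GCGTGGGCG and GCGGGGGCG. These motifs lay in 1.47%, 6.75%, 1.55%, 0.536% and 2.57% of all 32851 promoters of that length. No match overlapped one of another motif. The matches were a CArG box before 4 of the 5 Egr2 starts and GCGGGGGCG before Fosb. None of the 5 motifs lay in this window of Fos, Jun, Junb or Ier3, which says only that these letters are not in it. The CArG boxes of Egr2 are shown with 10 bases on each side, each 72 bases before a start site, and the other matched starts place CCATATATGG at positions -73 and -133. The 150 bases from position -160 to -11 are shown for Fosb, Fos and Junb, 3 genes whose levels the results below turn on. Capitals mark the matches, and each line is read 5′ to 3′ on the strand of the gene.
Egr2, chr10:67537484-67537513, plus strand: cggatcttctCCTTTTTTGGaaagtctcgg
Egr2, chr10:67537787-67537816, plus strand: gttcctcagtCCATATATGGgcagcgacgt
Fosb, chr7:19310056-19310205, minus strand: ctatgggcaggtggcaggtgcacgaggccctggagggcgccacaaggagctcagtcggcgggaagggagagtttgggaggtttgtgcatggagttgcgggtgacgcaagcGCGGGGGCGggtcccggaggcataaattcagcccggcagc
Fos, chr12:85473730-85473879, plus strand: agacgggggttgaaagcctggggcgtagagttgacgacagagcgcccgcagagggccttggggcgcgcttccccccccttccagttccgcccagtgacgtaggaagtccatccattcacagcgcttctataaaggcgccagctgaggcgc
Junb, chr8:84978759-84978908, minus strand: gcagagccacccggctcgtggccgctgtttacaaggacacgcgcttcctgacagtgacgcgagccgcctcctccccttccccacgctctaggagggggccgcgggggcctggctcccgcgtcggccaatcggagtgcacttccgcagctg

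The levels fell into an abundant and a scarce set. Per kilobase of exon, Ier3 and Fosl1 were highest in Mock (102 and 72.3 CPM per kb), followed by Jun (25.7), Junb (10.35) and Ier2 (10.2), which lay within their spread of each other. Egr1 was at 1.88 CPM per kb in Mock, and Fos, Egr3, Egr2 and Fosb were between 0.202 and 0.424 CPM per kb. Counts were correspondingly few in the scarce set, with 1 to 20 per library for Egr2, 3 to 28 for Fos, 7 to 31 for Egr3 and 7 to 32 for Fosb. Egr2 passed the filter on low counts only through Mock, and Fos only through Mock and HT-DNA, the groups where they were highest, so a lower value of these genes elsewhere is partly set by the filter. Their falls relative to Mock and HT-DNA are given without a test, and the intervals beside them are a description only. Egr3 passed in 4 groups, neither aspartate group among them, and Fosb in 5, all but AOA. Calls of Egr3 and Fosb that involve those groups carry some of the same limit. The 6 other genes had at least 13 counts in every library. Their variation between replicates, as edgeR's biological coefficient of variation, was 0.0675 for Jun to 0.13 for Ier2, beside a median of 0.0945 over all genes tested, and it reached 0.2935 for Egr2 and 0.199 for Fos.

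**Figure D1:**
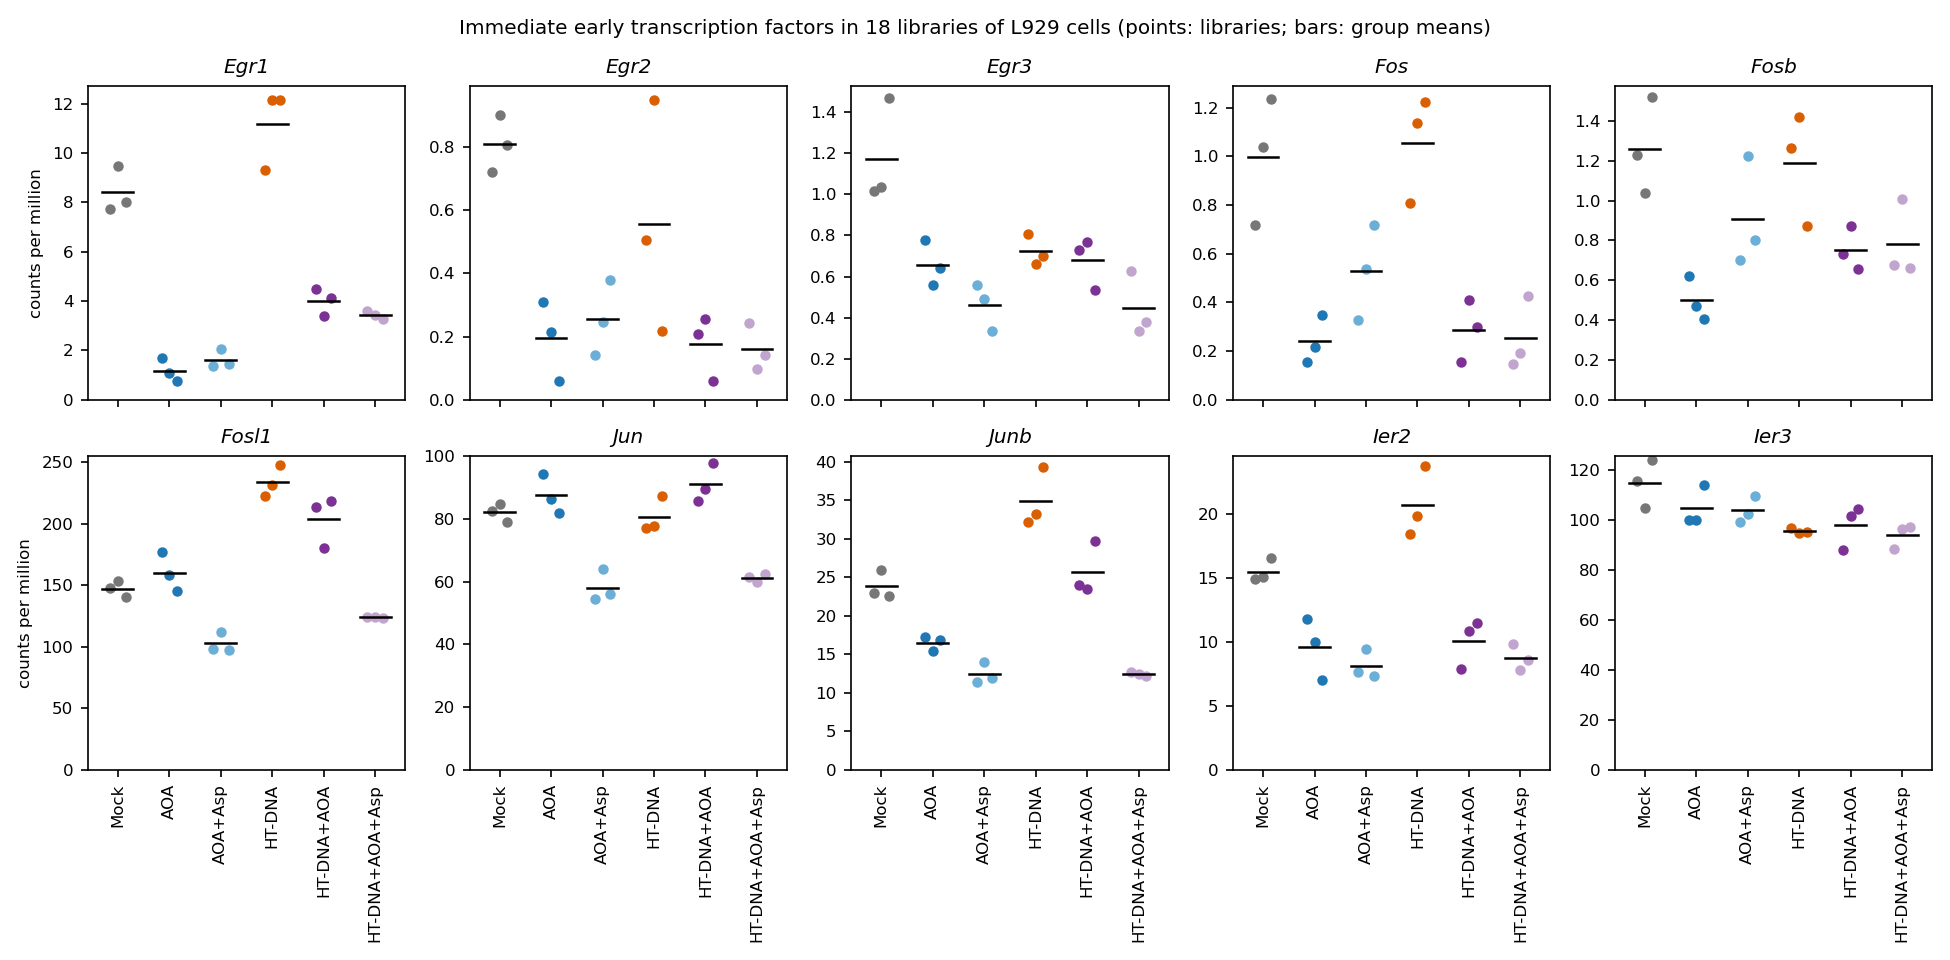
CPM (vertical axes, from 0) of the 10 genes in each of the 18 libraries, with points for libraries and bars for the means of 3. Egr1 dropped from 7.74 to 9.46 CPM in Mock to 0.756 to 1.71 CPM in AOA, whereas Jun and Fosl1 were lowest in both groups with aspartate.

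Egr1, which encodes the founding EGR factor, was at 7.74, 9.46 and 8.02 CPM in the 3 Mock libraries and at 1.71, 1.07 and 0.756 CPM in the 3 AOA libraries. The groups were far apart, and the fitted level was 7.06-fold lower with AOA (log2 fold change -2.82, 95% confidence interval -3.27 to -2.37). Egr1 was chosen for its fall with AOA, so these values may overstate it, and the intervals are not a test. AOA+Asp libraries read 1.35, 2.055 and 1.43 CPM, which overlapped AOA and stayed below every Mock library. HT-DNA libraries held 9.30, 12.1 and 12.1 CPM, and HT-DNA+AOA libraries held 4.49, 3.39 and 4.12 CPM, again without overlap (log2 fold change -1.49, interval -1.87 to -1.10). With aspartate as well, the values were 3.58, 3.42 and 3.27 CPM. In both settings Egr1 was thus far lower with AOA than without it, and libraries with and without aspartate overlapped (log2 fold changes 0.44, interval -0.10 to 0.97, and -0.22, interval -0.64 to 0.19).

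HT-DNA gave Egr1 higher means on each background. Relative to Mock the log2 fold change was 0.41 (interval 0.058 to 0.77), with overlapping libraries. On AOA it was 1.75 (interval 1.26 to 2.23), where all 3 HT-DNA+AOA libraries exceeded the 3 AOA libraries. On AOA+Asp, a comparison that played no part in choosing the gene, Egr1 rose 1.09 on the log2 scale (SE 0.22, edgeR adjusted p = 0.0062). That call was lost without AOA+Asp replicate 3 (log2 fold change 1.007, edgeR adjusted p = 0.0535). Leaving out AOA replicate 1, the highest of its group, moved the change with AOA from -2.82 to -3.165 and that with HT-DNA on AOA from 1.75 to 2.09. Relative to HT-DNA, the log2 fold change of Egr1 in HT-DNA+AOA+Asp was -1.71 (interval -2.10 to -1.32).

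Egr2 and Egr3 encode further EGR factors, the first best known from Schwann cells and the hindbrain and both from activated lymphocytes. Egr2 counts were 17, 20 and 17 in Mock, 6, 5 and 1 in AOA, and 3, 5 and 9 in AOA+Asp. They were 10, 20 and 5 in HT-DNA, 4, 5 and 1 in HT-DNA+AOA, and 5, 2 and 3 in HT-DNA+AOA+Asp. Mock was the only group that stood clear of the 4 groups with AOA. With AOA on HT-DNA the log2 fold change was -1.59 (interval -2.84 to -0.34) with overlapping libraries, and it was -0.96 without HT-DNA replicate 2, the highest of its group. With aspartate as well, it was -1.75 relative to HT-DNA (interval -2.995 to -0.51).

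Egr3 was at 1.016, 1.04 and 1.47 CPM in Mock and at 0.776, 0.558 and 0.640 CPM in AOA, with no overlap and a log2 fold change of -0.83. It was lowest in AOA+Asp (0.560, 0.489 and 0.337 CPM) and in HT-DNA+AOA+Asp (0.629, 0.337 and 0.379 CPM). Relative to Mock, Egr3 fell in AOA+Asp (log2 fold change -1.34, SE 0.30, edgeR adjusted p = 0.0112), a call lost without AOA+Asp replicate 3 or Mock replicate 3 (edgeR adjusted p = 0.0603 and 0.0575). HT-DNA and HT-DNA+AOA did not differ past the threshold (means 0.7235 and 0.679 CPM, log2 fold change -0.08, interval -0.73 to 0.57). Every HT-DNA library was below Mock (log2 fold change -0.69, interval -1.29 to -0.09, edgeR adjusted p = 0.0525). With library totals in place of TMM scaling this fall passed (edgeR adjusted p = 0.0265).

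Among the FOS genes, the means of Fos and Fosb were lower in AOA than in Mock, as that of Egr1 was, and the mean of Fosl1 was not. Fos, the FOS subunit that serum induces most transiently, had 17, 23 and 26 counts in Mock and 3, 5 and 6 in AOA. HT-DNA libraries held 16, 24 and 28 counts and HT-DNA+AOA libraries 3, 8 and 5. Neither pair of groups overlapped, and the log2 fold changes were -2.05 without HT-DNA and -1.855 with it (intervals -2.97 to -1.125 and -2.76 to -0.95). With aspartate, counts were 7, 11 and 17 in AOA+Asp but 3, 4 and 9 in HT-DNA+AOA+Asp. The change from AOA to AOA+Asp (log2 fold change 1.15, SE 0.48) missed the threshold with an edgeR adjusted p = 0.0552, and it passed with the replicate number as a block (adjusted p = 0.0199) and without AOA replicate 3 or AOA+Asp replicate 1 (adjusted p = 0.0425 and 0.0321).

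Fosb, whose shorter splice form accumulates after repeated stimulation in neurons, held 1.23, 1.04 and 1.52 CPM in Mock and 0.621, 0.472 and 0.407 CPM in AOA. AOA+Asp libraries were higher, at 0.700, 1.22 and 0.800 CPM, with no overlap with AOA (log2 fold change 0.84, SE 0.32, edgeR adjusted p = 0.0399). Fosb was the single gene of the 9 tested that aspartate raised past the threshold. The call missed it without AOA replicate 2, AOA replicate 3, AOA+Asp replicate 2 or AOA+Asp replicate 3 (adjusted p 0.0505 to 0.186) with DESeq2 (adjusted p = 0.0757), without the filter (0.135) and with only the groups compared (0.077). On HT-DNA, AOA gave a log2 fold change of -0.64 (SE 0.30, edgeR adjusted p = 0.0907, or 0.0464 without HT-DNA replicate 3). On HT-DNA+AOA, aspartate gave one of 0.05 (interval -0.61 to 0.71).

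Fosl1 encodes FRA-1, a FOS protein without the strong activation domain of FOS that is typical of growing and invasive cells. It was the main AP-1 transcript among the FOS and JUN genes followed here, with 66.3% to 73.7% of their summed CPM per kb in every group. Mock libraries held 148, 153 and 140 CPM and AOA libraries 177, 158 and 145 CPM, so the groups overlapped. Libraries of AOA+Asp held 98.35, 112 and 97.3 CPM, below all of these, and the fall from AOA was -0.64 on the log2 scale (SE 0.085, edgeR adjusted p = 7.64e-06). HT-DNA raised Fosl1 to 222, 232 and 248 CPM (log2 fold change 0.67, SE 0.084, edgeR adjusted p = 9.96e-06). HT-DNA+AOA libraries were at 213, 180 and 219 CPM, and aspartate brought them to 124, 124 and 123 CPM (log2 fold change -0.72, SE 0.085, edgeR adjusted p = 1.77e-06).

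Fosl1 overlaps Ccdc85b on the opposite strand, and 54.5% of the 31-base sequences of its GENCODE vM21 transcripts are also in that gene. Whether counting used strand is not given in the sources used here, and only 1 of the 18 Fosl1 values was whole, so the division of reads between the genes is uncertain. Ccdc85b also rose with HT-DNA (51.8 to 88.8 CPM, log2 fold change 0.78) and fell with aspartate on AOA (52.2 to 38.8 CPM, log2 fold change -0.43). With AOA on HT-DNA, however, Ccdc85b fell by 0.63 on the log2 scale (edgeR adjusted p = 3.19e-06), while Fosl1 had a log2 fold change of -0.20 (SE 0.084, edgeR adjusted p = 0.0622), which passed without HT-DNA+AOA replicate 1 or 3 (adjusted p = 0.0342 and 0.018).

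Jun, the founding AP-1 subunit, was lower with aspartate and passed the test in no comparison that added HT-DNA. Its level was 82.6, 84.7 and 78.9 CPM in Mock, 94.5, 86.5 and 81.9 CPM in AOA, and 54.35, 63.9 and 56.0 CPM in AOA+Asp. The fall from AOA to AOA+Asp was -0.59 on the log2 scale (SE 0.078, edgeR adjusted p = 7.7e-06). HT-DNA libraries were at 77.2, 77.6 and 87.4 CPM, HT-DNA+AOA libraries at 85.8, 89.6 and 98.0 CPM, and HT-DNA+AOA+Asp libraries at 61.6, 59.99 and 62.3 CPM. With AOA on HT-DNA the log2 fold change was 0.17 (interval 0.011 to 0.34, edgeR adjusted p = 0.0771), which passed without HT-DNA replicate 3 or HT-DNA+AOA replicate 1 (adjusted p = 0.0362 and 0.0332), with DESeq2 (0.0378) and with at least 10 counts in every library (0.043). Aspartate lowered Jun by a like amount on HT-DNA+AOA (log2 fold change -0.57, SE 0.078, edgeR adjusted p = 1e-05), and the difference between both aspartate changes was 0.02 (interval -0.21 to 0.25). Jun shares 6.39% of its 31-base sequences with the opposite-strand gene Junos, which rose with aspartate (log2 fold change 0.51 on AOA), against the direction of Jun.

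Junb, which encodes a JUN protein with weaker activating function that often opposes JUN, responded to all 3 treatments. Libraries held 22.9, 25.95 and 22.5 CPM in Mock, 17.2, 15.5 and 16.8 CPM in AOA, and 11.3, 13.95 and 11.9 CPM in AOA+Asp, with no overlap between the 3 groups. HT-DNA libraries held 32.1, 33.2 and 39.4 CPM, HT-DNA+AOA libraries 23.98, 23.5 and 29.7 CPM, and HT-DNA+AOA+Asp libraries 12.7, 12.4 and 12.2 CPM. The fall with AOA on HT-DNA was -0.44 on the log2 scale (SE 0.10, edgeR adjusted p = 0.00165). Aspartate lowered Junb further on AOA (log2 fold change -0.41, SE 0.11, edgeR adjusted p = 0.00563) and on HT-DNA+AOA (log2 fold change -1.045, SE 0.11, edgeR adjusted p = 4.22e-07).

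HT-DNA raised Junb in Mock (log2 fold change 0.55, SE 0.10, edgeR adjusted p = 0.000345) and in AOA (0.64, SE 0.11, edgeR adjusted p = 0.000439). In AOA+Asp its change was 0.01 (interval -0.23 to 0.24). The difference between the aspartate changes with and without HT-DNA, which is also the difference between the HT-DNA changes with and without aspartate, was -0.63 for Junb (SE 0.16, edgeR adjusted p = 0.0595), just short of the threshold. DESeq2 (adjusted p = 0.0115), the fits with library totals, with at least 10 counts in every library and without the filter, and the fit without HT-DNA+AOA replicate 1 (edgeR adjusted p = 0.0216) put it past. Junb shares 6.51% of its 31-base sequences with Prdx2 on the opposite strand, whose level lay between 78.2 and 127 CPM in all 18 libraries and rose with HT-DNA relative to Mock (log2 fold change 0.37, edgeR adjusted p = 0.0142).

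**Figure D2:**
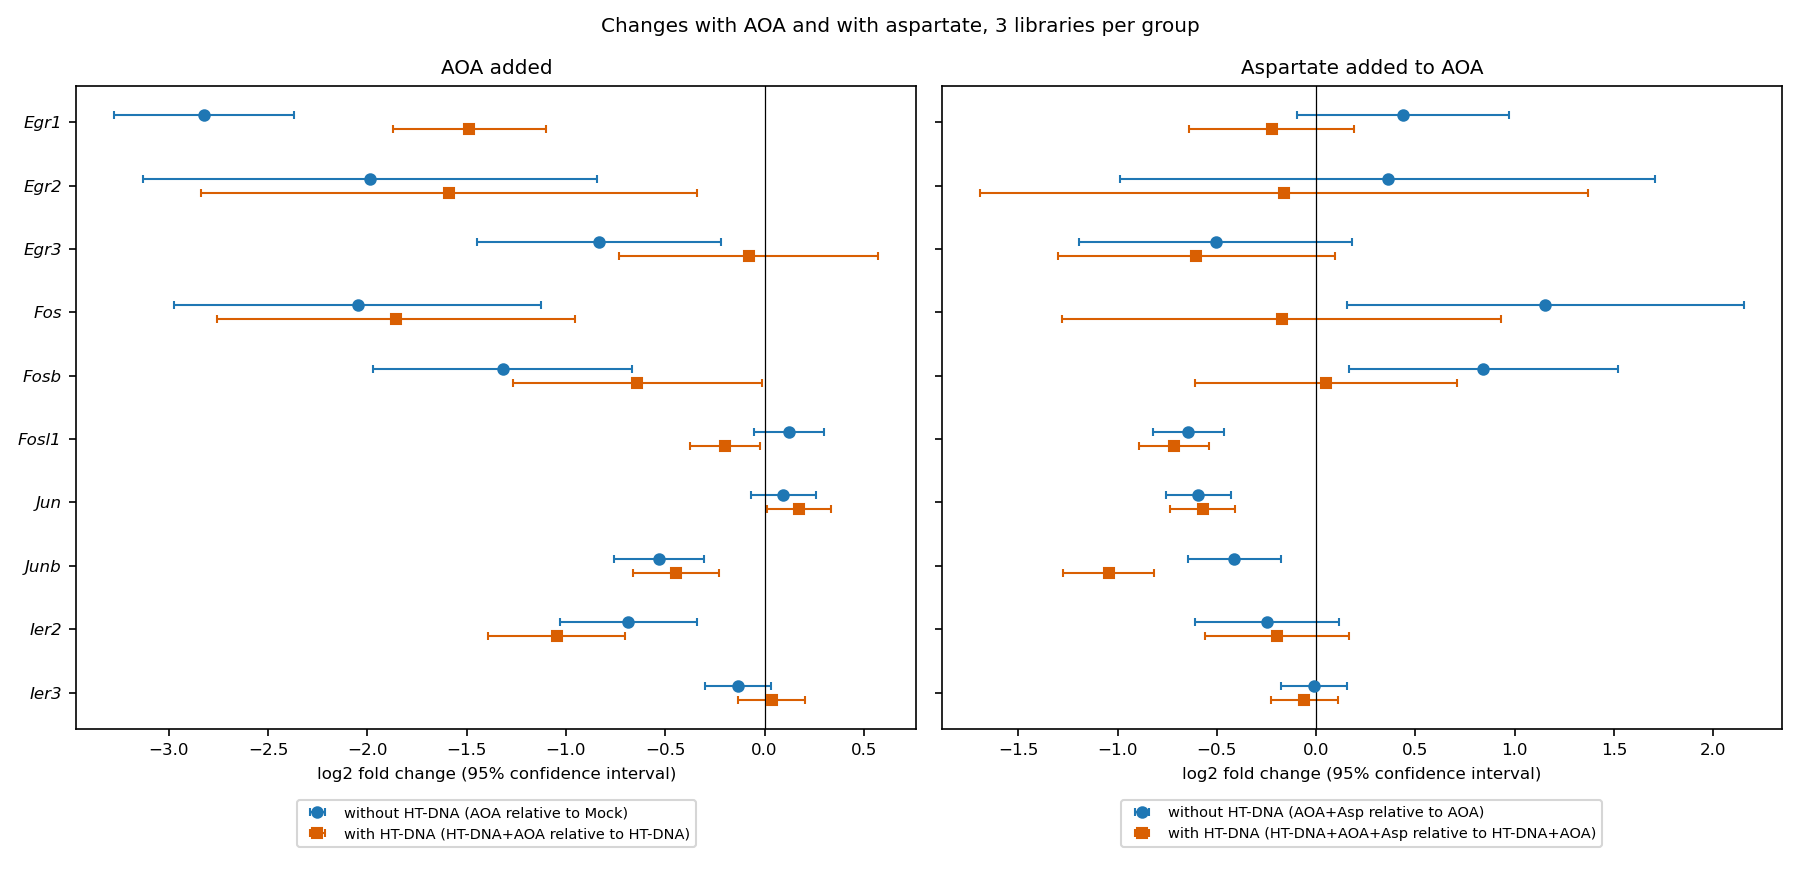
Log2 fold changes (horizontal axis, bars for 95% confidence intervals, 3 libraries per group) of the 10 genes with AOA (left) and with aspartate added to AOA (right), without HT-DNA (circles) and with it (squares). Egr1, Egr2 and Fos lie far to the left with AOA, and Fosl1, Jun and Junb lie left of 0 with aspartate. The changes of all 10 genes with AOA relative to Mock, and of Egr1, Egr2 and Fos on HT-DNA, are descriptions.

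Ier2 and Ier3 are immediate early genes that encode a nuclear regulator of transcription and an inhibitor of apoptosis. Ier2 was at 14.9, 15.05 and 16.5 CPM in Mock, 11.8, 9.96 and 6.98 CPM in AOA, and 7.65, 9.44 and 7.29 CPM in AOA+Asp. HT-DNA libraries held 18.45, 19.85 and 23.7 CPM, and the groups with AOA as well held 7.84, 10.8 and 11.45 CPM without aspartate and 9.82, 7.79 and 8.57 CPM with it. AOA therefore lowered Ier2 on HT-DNA with no overlap (log2 fold change -1.05, SE 0.16, edgeR adjusted p = 3.55e-05). Aspartate gave log2 fold changes of -0.25 (interval -0.61 to 0.12) on AOA and -0.20 (interval -0.56 to 0.16) on HT-DNA+AOA. HT-DNA raised Ier2 relative to Mock (log2 fold change 0.42, SE 0.16, edgeR adjusted p = 0.034), a call lost without HT-DNA replicate 3, Mock replicate 1 or Mock replicate 2 (adjusted p 0.0914 to 0.168) and with library totals in place of TMM scaling (adjusted p = 0.106).

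Ier3 stayed between 88.1 and 124 CPM in all 18 libraries. HT-DNA lowered it relative to Mock, from 115 ± 9.53 to 95.7 ± 1.11 CPM (SD, n = 3; log2 fold change -0.26, SE 0.080, edgeR adjusted p = 0.0107), and without Mock replicate 3 this missed the threshold (edgeR adjusted p = 0.0605). Neither AOA on HT-DNA (log2 fold change 0.04, interval -0.13 to 0.20) nor aspartate on AOA (-0.01, interval -0.18 to 0.16) moved Ier3 past the threshold.

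With AOA relative to Mock, Egr1, Egr2, Egr3, Fos, Fosb, Junb and Ier2 lay below Mock in every library. The share of all genes that did so was not computed. This is the contrast behind the choice of genes, so nothing is read from these falls. On HT-DNA, AOA lowered 2 of the 5 abundant genes open to a test (Junb and Ier2) and raised none, beside 22.7% lower and 22.8% higher among all genes, and neither Egr3 nor Fosb passed. Both contrasts use separate libraries, and the log2 fold changes ran from -2.82 to 0.12 without HT-DNA and from -1.855 to 0.17 with it.

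Aspartate on AOA lowered 3 of 9 genes (Fosl1, Jun and Junb) and raised 1 (Fosb), beside 22.8% lower and 23.5% higher among all genes. On HT-DNA+AOA it lowered 3 of 9, again Fosl1, Jun and Junb, and raised none, beside 23.9% lower and 23.7% higher. With 9 genes tested, these shares are near those of all genes. The differences between both aspartate changes gave 0 calls among the 9 genes by edgeR, with 1 at an unadjusted p under 0.05 and 1 call by DESeq2, beside 0.266% higher and 0.785% lower among all genes. The AOA libraries serve in both the AOA and the aspartate comparisons, and so a chance deviation in them enters both with opposite sign.

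Relative to Mock, AOA+Asp left Egr3, Fosl1, Jun, Junb and Ier2 lower past the threshold and no gene open to a test higher. Among all genes, 3.95% were lower and 2.52% higher. The means of all 10 genes were lower than in Mock, which for Egr1, Egr2 and Fos is a description. Of the abundant genes open to a test, 4 of 5 were lower past the threshold. Relative to HT-DNA, HT-DNA+AOA+Asp left 4 of the 5 abundant genes other than Egr1 lower (Fosl1, Jun, Junb and Ier2) and none higher, beside 23.5% lower and 23.2% higher among all genes. Junb changed by -1.49 on the log2 scale (SE 0.11, edgeR adjusted p = 4.3e-08) and Ier2 by -1.245 (SE 0.16, edgeR adjusted p = 2.58e-05). Fosl1 changed by -0.91 (SE 0.085, edgeR adjusted p = 1.01e-06) and Jun by -0.40 (SE 0.078, edgeR adjusted p = 0.000667). Fos was -2.03 from HT-DNA (interval -2.93 to -1.13). Neither Egr3 (edgeR adjusted p = 0.0928) nor Fosb (0.107) passed, and Egr3 did so without HT-DNA+AOA+Asp replicate 1 (0.037).

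HT-DNA raised 3 of the 5 abundant genes other than Egr1 relative to Mock, namely Fosl1, Junb and Ier2. It lowered 1 (Ier3), beside 24.2% higher and 24% lower among all genes. On AOA it raised 2 of 9 (Fosl1 and Junb) and lowered none, beside 6.46% higher and 6.98% lower. The Fosl1 call on AOA (log2 fold change 0.35, edgeR adjusted p = 0.00904) was lost when only the libraries of these 2 groups were fitted (edgeR adjusted p = 0.172). On AOA+Asp it raised 1 of 10 (Egr1) and lowered none, beside 1.93% higher and 1.52% lower. Fosl1 was above AOA+Asp in every library there (log2 fold change 0.27, interval 0.097 to 0.45) with an edgeR adjusted p = 0.0909, and it passed with DESeq2 (adjusted p = 0.0317) and when only the groups compared were fitted (0.00111). Fosb, Jun and Egr3 did not pass on any of the 3 backgrounds, and Fos and Egr2 did not pass on AOA or AOA+Asp. The first HT-DNA comparison shares its Mock libraries with the AOA comparison.

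**Figure D3:**
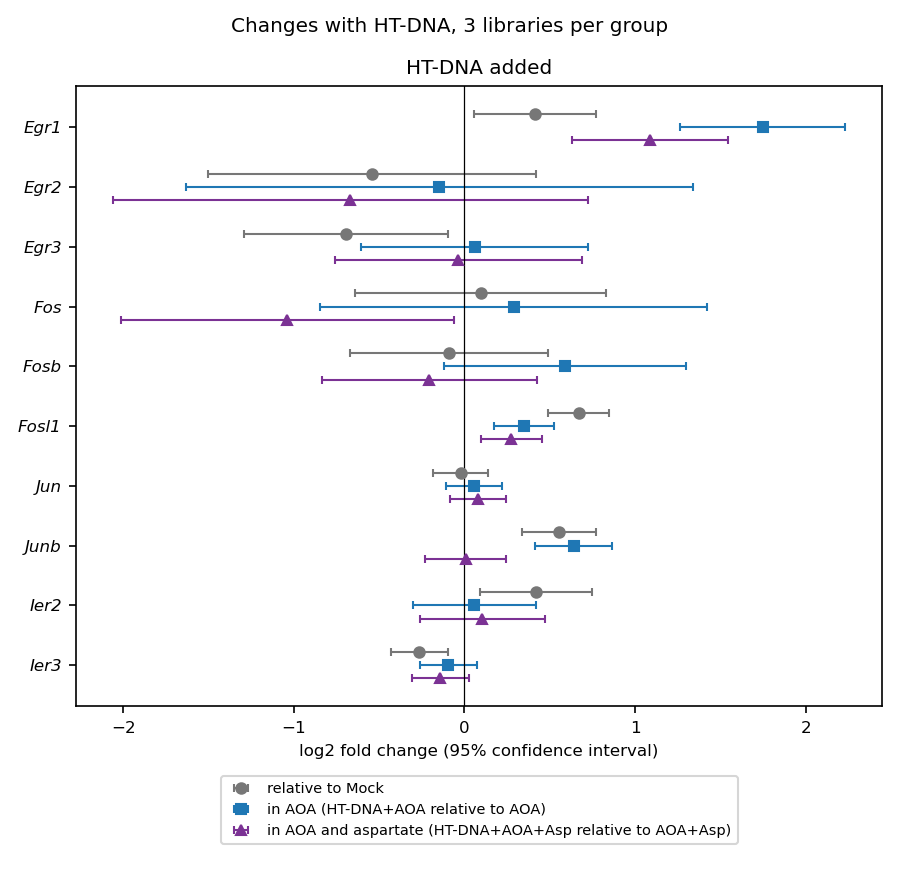
Log2 fold changes (horizontal axis, bars for 95% confidence intervals, 3 libraries per group) of the 10 genes with HT-DNA relative to Mock (circles), on AOA (squares) and on AOA+Asp (triangles). Junb lies at 0.55 and 0.64 without aspartate and at 0.01 with it, and Egr1 at 0.41, 1.75 and 1.09.

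The other genes of the pathway moved in both directions. Of 25 other immediate early genes tested, AOA raised 7 and lowered 9, with a median log2 fold change of -0.09 beside 0.02 over all genes. Myc, the growth-promoting transcription factor, rose from 139 ± 4.43 CPM in Mock to 537 ± 33.0 CPM in AOA (SD, n = 3; log2 fold change 1.95, edgeR adjusted p = 1.06e-13), and aspartate returned it to 151 ± 9.23 CPM. Id3, an inhibitor of bHLH factors, rose from 5.63 ± 2.03 to 29.2 ± 1.40 CPM. Arc, a cytoskeletal immediate early gene known from synapses, fell from 25.35 ± 0.837 to 5.52 ± 0.321 CPM (log2 fold change -2.20, edgeR adjusted p = 1.73e-10), as Egr1 did. Unlike Egr1, Arc rose again with aspartate, to 16.1 ± 2.23 CPM (log2 fold change 1.55, edgeR adjusted p = 3.16e-08). On HT-DNA, 9 were higher and 10 lower with AOA, and 3 were higher and 12 lower with aspartate on HT-DNA+AOA (medians 0.20 and -0.36, beside 0.02 and -0.01 over all genes).

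The kinase gene Plk2 rose with AOA on HT-DNA from 18.3 ± 2.13 to 65.5 ± 8.46 CPM and was at 18.03 ± 1.75 CPM with aspartate (log2 fold change -1.86, edgeR adjusted p = 2.73e-09). HT-DNA raised 8 of the 25 and lowered 4 relative to Mock, with Id3 (log2 fold change 1.65), Ccn1 (1.007) and Gadd45b (0.80) in front. On AOA it raised 11 and lowered 2, led by Csrnp1, a nuclear factor first found through AXIN1 (10.4 ± 0.305 to 29.4 ± 3.21 CPM, log2 fold change 1.497, edgeR adjusted p = 3.21e-09). For the difference between the aspartate changes with and without HT-DNA, 3 of the 25 were lower and none higher. Among all genes, 0.785% were lower and 0.266% higher. Csrnp1, named here after its values were seen, was among the 3 (difference -1.23 on the log2 scale, edgeR adjusted p = 0.000119).

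Of 9 other AP-1 subunits and bZIP partners tested, 3 rose and 3 fell with AOA (median -0.07). Fosl2, which encodes FRA-2, rose from 88.8 ± 1.97 to 147 ± 0.398 CPM (log2 fold change 0.72, edgeR adjusted p = 1.83e-07), opposite to Fos and Fosb, and was lower with HT-DNA (59.3 ± 0.661 CPM). Batf2, a bZIP factor of the interferon response, was at 1.63 ± 0.362 CPM in Mock, 3.46 ± 0.182 CPM in HT-DNA and 4.985 ± 1.41 CPM in HT-DNA+AOA, and aspartate lowered it to 1.60 ± 0.0367 CPM (log2 fold change -1.63, edgeR adjusted p = 8.11e-05).

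Of the 8 tested genes among SRF, its cofactors and the EGR corepressors, HT-DNA raised 3 and lowered 4 relative to Mock (median -0.13, beside -0.01 over all genes). Srf, which binds the CArG box, rose from 47.6 ± 2.00 to 98.2 ± 8.13 CPM (log2 fold change 1.05, edgeR adjusted p = 1.53e-06) and was at 59.1 ± 11.3 CPM in HT-DNA+AOA (log2 fold change -0.74, edgeR adjusted p = 1.68e-05). Without HT-DNA, Srf was at 47.2 ± 1.095 CPM in AOA (log2 fold change -0.01, edgeR adjusted p = 0.955), while the ternary complex factor gene Elk1 was lower with AOA (log2 fold change -0.46, edgeR adjusted p = 0.00188). Nab2, a corepressor that EGR1 induces, fell with AOA on HT-DNA (log2 fold change -0.50, edgeR adjusted p = 5.24e-05).

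ERK feedback genes encode phosphatases, Sprouty-family proteins and ETS factors that ERK activity induces, and 11 were tested. With AOA, 7 fell and 2 rose relative to Mock (median -0.45, beside 0.02 over all genes), where 23.3% of all genes were lower and 22.4% higher. In AOA+Asp, 9 fell and none rose relative to Mock (median -0.42, beside 0.01), where 3.95% of all genes were lower and 2.52% higher. HT-DNA relative to Mock likewise lowered 7 and raised 2 (median -0.27, beside -0.01), where 24% of all genes were lower and 24.2% higher. Dusp6, the ERK phosphatase, was at 59.5 ± 1.80 CPM in Mock, 40.0 ± 5.15 CPM in AOA and 31.6 ± 1.72 CPM in AOA+Asp (log2 fold change -0.91 from Mock, edgeR adjusted p = 1.71e-06). Dusp5 went the other way with AOA, from 19.7 ± 0.420 to 35.0 ± 4.35 CPM, and fell to 11 ± 3.08 CPM with aspartate (log2 fold change -1.67, edgeR adjusted p = 1.9e-08). Etv1 fell from 40.4 ± 3.40 to 13.7 ± 0.754 CPM with AOA and rose to 33.0 ± 1.87 CPM with aspartate.

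Of 20 known AP-1 and EGR1 target genes, 12 were tested, and aspartate lowered 11 of the 12 on AOA and 11 on HT-DNA+AOA, beside 22.8% and 23.9% of all genes. The median log2 fold changes were -0.54 and -0.50, beside -0.01 over all genes for each. AOA itself raised 7 and lowered 1 relative to Mock, beside 22.4% and 23.3% of all genes, and HT-DNA raised 9 and lowered none, beside 24.2% and 24%. Relative to Mock, AOA+Asp left 4 of the 12 lower and none higher, beside 3.95% and 2.52% of all genes (median -0.11, beside 0.01). Lif, a cytokine of the IL-6 family, was at 24.3 ± 4.20 CPM in AOA and 6.35 ± 0.0777 CPM in AOA+Asp, and Hbegf, an EGF receptor ligand, at 19.75 ± 2.05 and 9.22 ± 1.155 CPM. On HT-DNA+AOA, aspartate lowered Lif from 30.98 ± 3.86 to 7.30 ± 0.872 CPM. The gene outside the 11 was Il11 on both backgrounds, named here after its values were seen, which passed the test upward on HT-DNA+AOA with a mean of 0.736 CPM (log2 fold change 1.016, edgeR adjusted p = 0.0498).

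**Figure D4:**
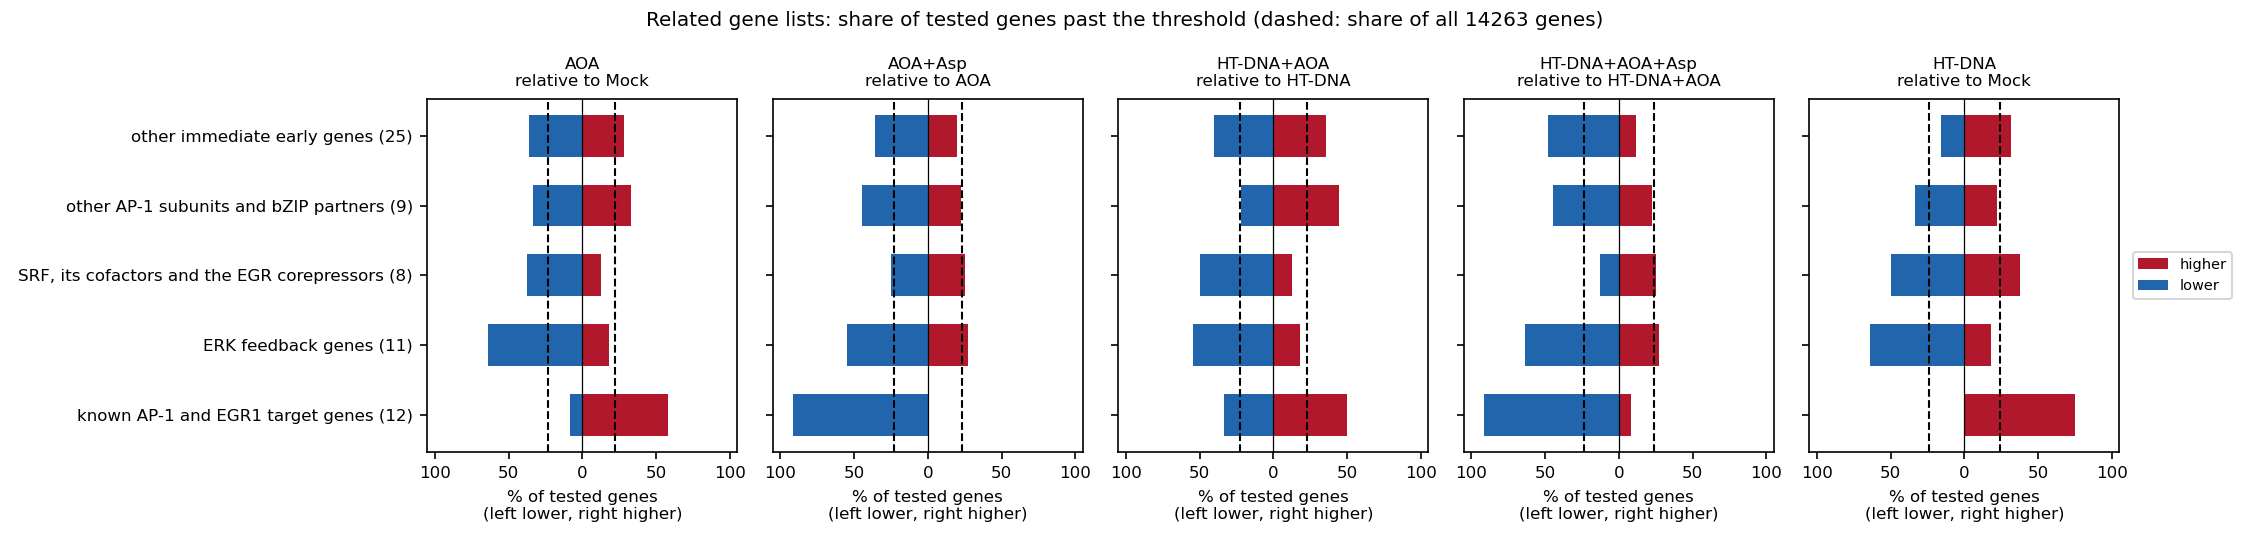
Share of the tested genes of each list (rows, number tested in brackets) that were higher (right) or lower (left) past an adjusted p of 0.05 in 5 comparisons, with dashed lines for the share of all 14263 genes. Of the 12 AP-1 and EGR1 target genes, AOA raised 7 relative to Mock, and 11 were lower with aspartate on either background.

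Levels of Egr1 over the 18 libraries were compared with those of 12131 genes of at least 1 CPM on average by Pearson correlation of log2 CPM, as a description in which libraries of a group are not independent. The 10 nearest genes were Zfp36l2 (r = 0.976), Iffo2 (0.951), Dab2, Bid, Ehd4, Bhlhe40, B4galt5, Rbm12, Socs3 (0.903) and Bcl2l1 (0.898). They were picked for likeness to Egr1, itself picked for its fall with AOA, so their falls with AOA are not a separate result. Zfp36l2, an mRNA decay factor, was at 339 ± 8.52 CPM in Mock, 171 ± 14.2 CPM in AOA and 201 ± 3.37 CPM in AOA+Asp. The cytokine signalling inhibitor gene Socs3 was at 46.2 ± 1.35, 15.5 ± 1.32 and 19.55 ± 1.685 CPM in these groups, and at 56.7 ± 4.53 CPM in HT-DNA and 18.9 ± 1.57 CPM in HT-DNA+AOA. Of the other 5 immediate early genes abundant enough to rank, Ier2 stood at rank 69 (r = 0.832) and Junb at rank 216 (r = 0.755), followed by Fosl1 at 1119, Jun at 3339 and Ier3 at 7086. So 1 of the 5 was among the nearest 100 of the 12131 genes. The 4 scarce genes averaged under 1 CPM and were not ranked (r = 0.742 for Fosb, 0.625 for Fos, 0.619 for Egr2 and 0.5085 for Egr3).

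**Figure D5:**
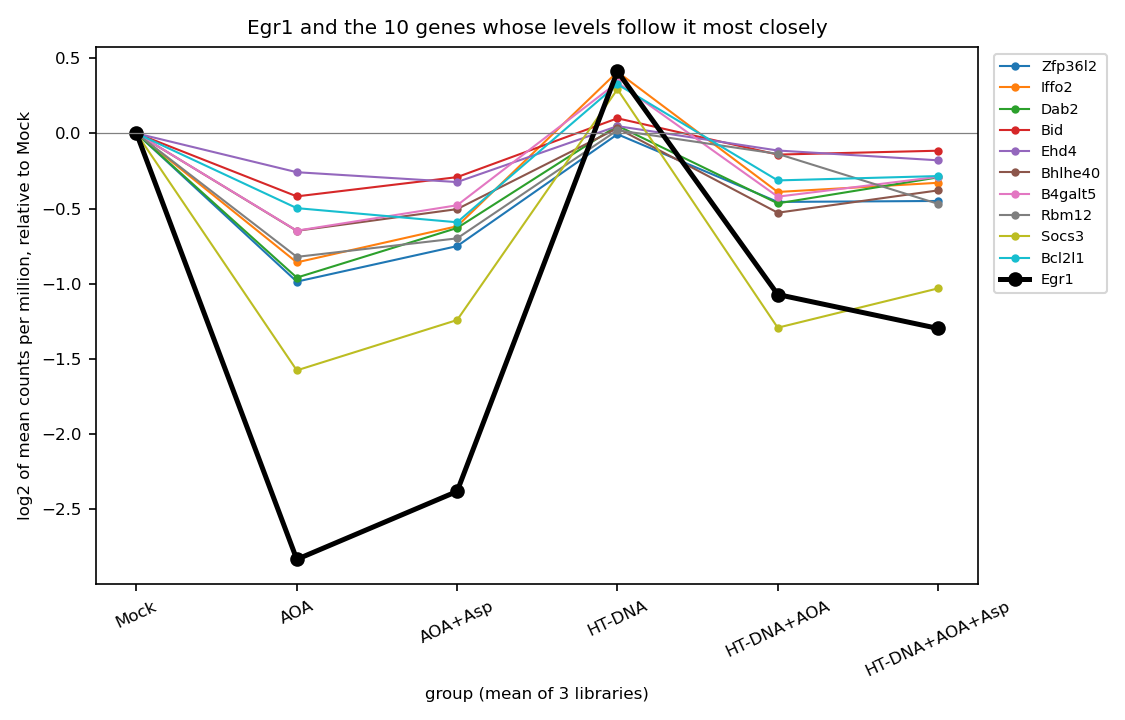
Log2 of the mean CPM of 3 libraries, relative to Mock (vertical axis), in the 6 groups (horizontal axis) for Egr1 (black) and its 10 nearest genes. All 11 lines drop in AOA and stay low in AOA+Asp, which follows from choosing the 10 genes for their likeness to Egr1. The line of Egr1 drops furthest, from a mean of 8.41 CPM in Mock to 1.18 CPM in AOA.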

How the data were processed

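RNA from 18 L929 cultures (6 groups of 3, taken from the sample labels) was isolated with TRIzol, and Majorbio sequenced it. The authors deposited an estimated count per gene and library, without normalization, as the values show. Of these, 11.6% were not whole numbers, and all were rounded. The design had assumed whole counts. The aligner, counting program and genome build are not given in the sources used here. The authors' group means in the table were not used.

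The function filterByExpr (at least 10 counts in 3 libraries, at least 15 in all) kept 14263 of 57180 genes. In edgeR 4.0.16 (R 4.3.3), 1 robust quasi-likelihood model with TMM scaling covered all 18 libraries, which held 17901546 to 24057284 counts. Benjamini-Hochberg adjustment ran over all 14263 genes, with a threshold of 0.05. The 9 comparisons between groups and 1 difference of aspartate effects are those in the text. P-values measure the spread between cultures of 1 line. An exact permutation test of 3 against 3 libraries cannot give a p under 0.1 and was not used. CPM come from TMM-scaled totals, and CPM per kb from the exon length in GENCODE vM21, which may not be the authors' annotation. Steps were tested on simulated data.

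The 10 genes and all lists were chosen with earlier results of these data known. The text names all 10, the 10 genes most like Egr1 and, per comparison and other list, up to 3 genes past the threshold with the largest changes, if the higher group averaged 1 CPM or more. The sample labels give replicate numbers but do not state that these pair the libraries, and the main model used no pairing. The alternatives were DESeq2 1.42.0, RLE scaling, library totals, no filter, a minimum of 10 counts throughout, a required log2 fold change of 1 either way, fits of the compared groups alone, a replicate block, and each library left out in turn.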

Additional observations from a re-analysis of the deposited data

How the results depend on the processing

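No call of the 10 genes changed direction under any alternative run. Counts of these genes for AOA on HT-DNA and for HT-DNA+AOA+Asp relative to HT-DNA are left out. Both would hold falls of Egr2 and Fos, which are not tested. Egr1 is counted only for HT-DNA+AOA+Asp relative to AOA+Asp. A required log2 fold change of at least 1 cut the number of genes called to 0 for aspartate on AOA (4 before), 1 for aspartate on HT-DNA+AOA (3), 0 for HT-DNA relative to Mock (4), 0 for HT-DNA on AOA (2) and 1 for AOA+Asp relative to Mock (5). The fit of only the groups compared gave 1 call for HT-DNA on AOA (2) and 2 for HT-DNA on AOA+Asp (1), and DESeq2 also gave 2 there. The difference of aspartate effects gave 1 call, Junb, in place of 0 with DESeq2, with at least 10 counts in every library, with library totals and without a filter. With each library left out in turn, the calls ran from 0 to 1 for HT-DNA on AOA+Asp, where 0 came without AOA+Asp replicate 3, and from 0 to 1 for the difference of aspartate effects. They ran from 3 to 5 for aspartate on AOA, 3 to 4 for HT-DNA relative to Mock, and 4 to 5 for AOA+Asp relative to Mock. The cause was not tested.

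The replicate block left the calls at 3 for aspartate on HT-DNA+AOA and at 5 for AOA+Asp relative to Mock. For HT-DNA they stayed at 4 relative to Mock, 2 on AOA and 1 on AOA+Asp. The difference of aspartate effects stayed at 0 calls. Aspartate on AOA gave 5 in place of 4, where Fos passed the threshold. Same-numbered libraries correlated over 0.1 in 7 of 45 pairs (range -0.11 to 0.278). Differently numbered libraries were not compared, so these values cannot settle whether the numbers pair the libraries.

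Library totals in place of TMM moved the median of all genes by over 0.1 in AOA relative to Mock (0.02 to -0.12) and HT-DNA relative to Mock (-0.01 to -0.12), and with them the share of higher calls among all calls from 49.1% to 32.1% and from 50.2% to 35.2%. Jun and Fosl1 in AOA relative to Mock, 0.09 and 0.12 with TMM, were then -0.04 and -0.01. Egr2, Fos, Egr3 and Fosb had at most 32 counts per library, which limits the precision of their values.

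Among all genes, a required log2 fold change of 1 left 54 to 1461 calls per comparison. The fit of only the groups compared gave 391 calls in place of 1917 for HT-DNA on AOA, 1844 in place of 492 for HT-DNA on AOA+Asp, 2447 in place of 923 for AOA+Asp relative to Mock, 65 in place of 150 for the difference of aspartate effects, 4208 in place of 6477 for AOA on HT-DNA and 4239 in place of 6797 for aspartate on HT-DNA+AOA. DESeq2 gave 739 for HT-DNA on AOA+Asp and 315 for the difference of aspartate effects, which had 303 without a filter. With single libraries left out, HT-DNA on AOA gave as few as 1079 and, without HT-DNA+AOA replicate 1, 4175. AOA+Asp relative to Mock fell to 374 without AOA+Asp replicate 1, HT-DNA on AOA+Asp to 235 without AOA+Asp replicate 3, and the difference of aspartate effects ran from 69 without AOA replicate 2 to 419 without HT-DNA+AOA replicate 3.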
